A study of Homo sapiens with 12 samples.

Results

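SOD2, IDH2, GLUD1, ACSS1, ACADL, ACADVL, ACAA2, PPIF, GOT2 and PDHA1 encode mitochondrial proteins that SIRT3 is known to deacetylate. They were chosen by name as known substrates of that enzyme, and their 10 symbols take up 11 of the 58735 gene rows of the table, because SOD2 is annotated as a pair of overlapping genes. RNA was sequenced from cells treated with 77-39, a small-molecule SIRT3 inhibitor, and from untreated cells of the ovarian granulosa cell tumor lines KGN, from an adult-type tumor, and COV434, from a juvenile-type tumor. The 12 libraries form 4 groups of 3, namely KGN untreated, KGN with 77-39, COV434 untreated and COV434 with 77-39. All were labelled wild type, and the treated cells received 77-39 for 72 h at a dose that the labels give as 10 μm/ml, a unit that cannot be read as a concentration. No vehicle for the untreated cells is given in the labels, and nothing in the labels says that the 3 libraries of a group came from separate cultures. The methods speak in general of independent experiments without naming these libraries, so the p-values measure only the spread between these libraries.

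SIRT3 is the main NAD+-dependent lysine deacetylase of the mitochondrial matrix. It removes acetyl groups from enzymes of oxidative metabolism and antioxidant defense, which changes their activity after they have been made. An inhibitor of SIRT3 acts on this modification, whereas RNA sequencing shows how much transcript of each substrate is present, so the comparisons below concern transcript levels and not acetylation or enzyme activity.

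Between 15547851 and 18280415 reads per library fell on genes. The identity of the lines was checked with 11 granulosa markers. In the untreated libraries labelled KGN, 2 of 11 had a mean of at least 1 FPKM (fragments per kilobase of gene, scaled to the size of the library), against 5 of 11 in those labelled COV434. FOXL2, the granulosa transcription factor, was at 0 to 0.0174 FPKM in the untreated libraries labelled KGN and at 11.5 to 13.0 FPKM in those labelled COV434, and CYP11A1, which begins steroid synthesis, was at 0 and at 48.9 FPKM on average. SMARCA2, a chromatin remodelling ATPase, was at 0.00773 and 5.65 FPKM, and its paralog SMARCA4 was at 2.58 and 9.22 FPKM. Of the other granulosa markers, INHBB averaged 0.00561 and 6.95 FPKM in the same untreated libraries. AMH, at 4.55 and 8.24 FPKM, and INHA, at 1.06 and 4.75 FPKM, were present in both. FSHR, AMHR2, CYP19A1, STAR, INHBA and FST averaged under 1 FPKM in both. FOXL2, CYP11A1 and INHBB go against a granulosa identity of the libraries labelled KGN, while AMH and INHA do not. Each set is therefore called by its label throughout. Whether the labels of the lines were exchanged was not tested. If they were, every difference between the untreated lines would turn its direction, and the responses given for KGN would be those of COV434 and the reverse. The extraction text names retinas. Of the retina markers, SAG, a photoreceptor arrestin, was at 0 to 0.0103 FPKM over all libraries, and RPE65, of the retinal pigment epithelium, averaged 4.34 FPKM in untreated KGN and 0 in untreated COV434. The share of reads on mitochondrially encoded genes was 7.30% to 8.81% in KGN and 7.71% to 13.51% in COV434, where treated library 1 stood apart at 13.51%.

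The members fell into those that passed the expression filter and those that were nearly silent. ACADVL, GOT2, GLUD1, IDH2, PDHA1, PPIF, ACAA2 and SOD2 passed the filter of a mean of 1 FPKM in every comparison. ACSS1, which makes acetyl-CoA from acetate in mitochondria, had 8 reads in all 12 libraries together and was listed at 0 in 9 of them. ACADL, the long-chain acyl-CoA dehydrogenase, had 1 read in all 12 libraries. A count of 0 allows up to 3 reads, or 0.0175 to 0.0231 FPKM for ACSS1 and 0.0348 to 0.0457 FPKM for ACADL depending on the library, and this covers counting error only. Neither gene was tested, and the counts below are of the 8 members that passed.

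On a scale that accounts for gene length, ACADVL, which opens the oxidation of very long-chain fatty acids, was the highest member in all 4 groups. It averaged 63.4 ± 1.80 FPKM (SD, n = 3) in untreated KGN and 89.4 ± 9.32 FPKM in untreated COV434. Below it the order differed between the lines. In untreated KGN it ran IDH2 (42.0 FPKM), GOT2 (37.5), GLUD1 (30.8), PPIF (18.0), PDHA1 (15.0), ACAA2 (14.0) and SOD2 (3.31), and only the ranges of IDH2 and GOT2 and those of PDHA1 and ACAA2 overlapped between neighbors. In untreated COV434 it ran GOT2 (54.7 FPKM), PPIF (51.0), PDHA1 (51.0), GLUD1 (44.6), IDH2 (20.3), ACAA2 (17.1) and SOD2 (8.43). There the ranges of GOT2, PPIF and PDHA1 overlapped from neighbor to neighbor, as did those of IDH2 and ACAA2. With 77-39, IDH2 stood below GOT2 and GLUD1 in KGN, and its range no longer overlapped that of either neighbor. These levels use all exons of a gene joined, which is 1.05 times the longest coding transcript for IDH2, 1.16 for GLUD1, 1.22 for PPIF, 1.29 for PDHA1, 1.51 for ACAA2, 1.53 for GOT2 and 2.09 for ACADVL. The order of members close in level, such as IDH2 and GOT2 or PDHA1 and ACAA2, therefore depends on the length used.

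**Figure D1:**
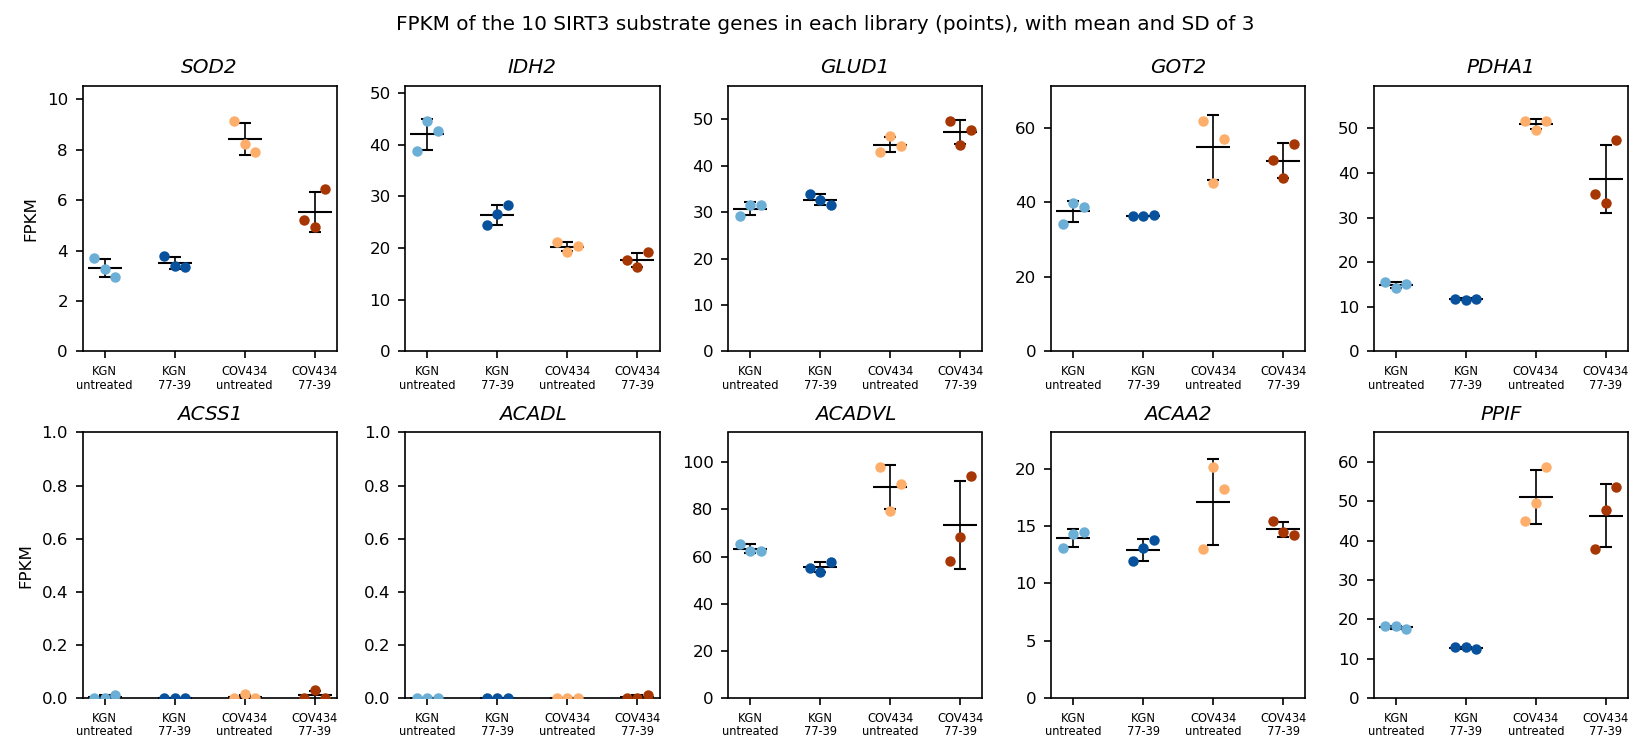
Each panel shows 1 of the 10 SIRT3 substrate genes, with FPKM from 0 on the y axis and the 4 groups on the x axis; points are libraries and bars are the mean and SD of 3. IDH2, PPIF, PDHA1 and ACADVL sit lower in treated than in untreated KGN, SOD2, IDH2 and PDHA1 sit lower in treated COV434, and ACSS1 and ACADL lie on the zero line.

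The SOD2 level rests on how its gene was annotated. SOD2 encodes manganese superoxide dismutase, which turns superoxide in the matrix into hydrogen peroxide. The main row (ENSG00000112096, GRCh38 chromosome 6, 159669057 to 159745186, minus strand) was given a length of 16493 bases, all exons of its 14 transcripts joined, whereas the protein-coding transcript SOD2-203 has 990 bases. Of the 666 coding bases of SOD2-203, 643 also lie in exons of the second SOD2 gene (ENSG00000285441), which had 14 reads in all 12 libraries against 17562 for the main row. How reads in the shared bases were counted is not stated. The level of SOD2 against the other members is therefore uncertain. Its differences between groups use 1 length throughout. However, 15648 of the 16493 exon bases are not shared with the second gene, so these differences need not be those of the coding bases. Transcript use was not tested.

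Treatment was first compared in the libraries labelled KGN. Of the 8 members tested, 4 fell with 77-39 and 0 rose, at an adjusted p under 0.05 by limma with Benjamini-Hochberg adjustment over 12671 genes. Over all genes tested in these libraries 34% were called, 17.6% as higher and 16.4% as lower. No member passed as higher by voom on the recovered reads either, and 0 were higher at an unadjusted p under 0.05. The members' median log2 fold change was -0.15, beside 0.011 for all genes, on the log2(FPKM + 1) scale used for every fold change here. In bulk RNA, fewer cells of a kind and less RNA per cell cannot be told apart.

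IDH2, the mitochondrial NADP+-dependent isocitrate dehydrogenase that supplies NADPH to matrix antioxidant systems, changed most among the members. Its 3 untreated libraries labelled KGN read 38.8, 44.7 and 42.6 FPKM and its 3 treated libraries 24.4, 26.6 and 28.3 FPKM. All treated libraries lay below all untreated ones. The log2 fold change was -0.65 ± 0.073 (SE, 95% interval -0.82 to -0.48), with an adjusted p of 0.00127 by limma.

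PPIF encodes cyclophilin D, the matrix prolyl isomerase that sensitizes the permeability transition pore. It read 18.2, 18.2 and 17.5 FPKM in the untreated and 12.9, 12.9 and 12.5 FPKM in the treated libraries labelled KGN. The groups did not overlap, and the spread within each was small (SD 0.416 and 0.251 FPKM). The log2 fold change was -0.46 ± 0.041 (SE), with a limma adjusted p of 0.000597.

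PDHA1, the E1 alpha subunit through which pyruvate enters the citrate cycle as acetyl-CoA, read 15.5, 14.2 and 15.2 FPKM untreated and 11.9, 11.6 and 11.7 FPKM with 77-39. Again no treated library reached an untreated one. Its log2 fold change was -0.33 ± 0.047 (SE), with a limma adjusted p of 0.00294. Of its exon bases, 21.3% lie antisense to MAP3K15, and strand use in counting is not stated.

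ACADVL read 65.5, 62.4 and 62.3 FPKM untreated and 55.2, 53.6 and 57.8 FPKM treated in the libraries labelled KGN. The groups did not overlap, although the change was the smallest of the 4, at -0.19 ± 0.048 (SE) on the log2 scale, with a limma adjusted p of 0.0229. This call was the least stable. It was lost in 4 of the 6 fits that left out 1 library (without untreated 2 or 3 or treated 1 or 2), where the adjusted p reached 0.0927, and in 1 fit of all 12 libraries (adjusted p 0.50). In that joint fit 9.76% of genes were called, and of the members IDH2 and PPIF kept their calls, with adjusted p-values of 0.00191 and 0.0465, while PDHA1 was at 0.107.

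The remaining members tested in KGN did not pass. GLUD1, glutamate dehydrogenase, averaged 30.8 FPKM untreated and 32.7 FPKM treated, with a log2 fold change of 0.086 (95% interval -0.038 to 0.21). GOT2, the mitochondrial aspartate aminotransferase of the malate-aspartate shuttle, averaged 37.5 and 36.3 FPKM (-0.042, interval -0.19 to 0.10). ACAA2, the thiolase of the last step of beta-oxidation, averaged 14.0 and 12.9 FPKM (-0.11, interval -0.26 to 0.050), and SOD2 averaged 3.31 and 3.51 FPKM (0.067, interval -0.12 to 0.25). Each of these 4 had overlapping groups. Counted by overlap alone, 4 members were lower in every treated library, where 23.4% of all genes tested were.

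The promoters of PPIF and PDHA1 are shown because these members fell in the libraries labelled KGN and are 2 of the 3 members, with SOD2, that hold the motif CCAAT in a window from 250 bases before to 50 bases after a RefSeq start (build GRCh38.p14, either strand). CCAAT, the core of the box bound by the factor NF-Y, was in 34.6% of all 35116 such windows, and in 4 of the 15 windows of the members. Also searched were GGGCGG, in 9 of the 15 and in 45% of all windows, and CCGGAAG, in 1 of the 15 and in 10.3%. ACADVL, which also fell, had no CCAAT match in its windows. The IDH2 window lies inside the gene as GENCODE annotates it, so it does not cover the bases before that start. The stretches below, read from RefSeq, are the 200 bases before each gene's start in release 29 of GENCODE, on the plus strand, 5′ to 3′. The CCAAT match is in capitals. They cover chr10:79347269-79347468 for PPIF, where the match begins 32 bases before the start, and chrX:19343693-19343892 for PDHA1, where it begins 77 bases before it.
PPIF: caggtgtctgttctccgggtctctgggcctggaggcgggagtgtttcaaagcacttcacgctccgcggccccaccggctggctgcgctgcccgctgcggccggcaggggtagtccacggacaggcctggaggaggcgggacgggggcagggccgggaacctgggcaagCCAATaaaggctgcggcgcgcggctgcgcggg
PDHA1: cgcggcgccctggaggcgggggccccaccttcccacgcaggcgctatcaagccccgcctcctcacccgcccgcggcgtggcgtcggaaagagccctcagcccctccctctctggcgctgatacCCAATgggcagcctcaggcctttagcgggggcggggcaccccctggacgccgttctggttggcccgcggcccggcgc
Both stretches are rich in G and C, at 72.5% in PPIF and 75.5% in PDHA1. A match is a description of these letters, and binding was not measured.

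In the libraries labelled COV434 the same comparison called 0 of 8 members by limma, where 0.0415% of 12060 genes were called, and voom on the recovered reads also called 0. At an unadjusted p under 0.05 there were 2, SOD2 and PDHA1, where 8% of all genes were. With the library number as a block 0 members passed as well, where 0.721% of genes did. The members' median log2 fold change was -0.18, beside -0.018 for all genes, and 3 members (SOD2, IDH2 and PDHA1) were lower in every treated library, where 8.16% of all genes were. Replicates of COV434 differed more than those of KGN, so the intervals were wider.

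SOD2 read 9.16, 8.23 and 7.91 FPKM in the untreated libraries labelled COV434 and 5.20, 4.93 and 6.44 FPKM in the treated ones. The groups did not overlap. The log2 fold change was -0.54 (95% interval -0.88 to -0.19), with an unadjusted p of 0.00666 and an adjusted p of 0.307 by limma. In 1 fit of all 12 libraries, where 4.05% of the genes were called, SOD2 was the 1 member called in COV434, with an adjusted p of 0.0182. Without treated library 1, which had the highest mitochondrial share, its log2 fold change was -0.50.

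PDHA1 read 51.6, 49.6 and 51.7 FPKM untreated and 35.3, 33.3 and 47.4 FPKM treated in the libraries labelled COV434. Treated library 3 lay close to the untreated values while the other two were well below them. The log2 fold change of -0.41 (interval -0.80 to -0.012) had an adjusted p of 0.602 by limma. IDH2 averaged 20.3 ± 0.886 FPKM untreated and 17.8 ± 1.39 FPKM treated (SD, n = 3), with a log2 fold change of -0.18 (interval -0.50 to 0.13).

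ACADVL varied widely with treatment in COV434, at 58.0, 68.2 and 94.2 FPKM against 97.9, 79.4 and 90.8 FPKM untreated. Treated library 1, with the highest mitochondrial share, held the lowest ACADVL value and treated library 3, with the lowest share, the highest. The log2 fold change was -0.30, and -0.15 without treated library 1. PPIF was likewise lowest in treated library 1, at 37.7 FPKM against 47.8 and 53.5 FPKM in the other treated libraries, and its log2 fold change of -0.14 became -0.0046 without that library. The part of the mitochondrial share in these values was not tested. GLUD1 (0.084), GOT2 (-0.086) and ACAA2 (-0.18) had overlapping groups and intervals that included 0.

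**Figure D2:**
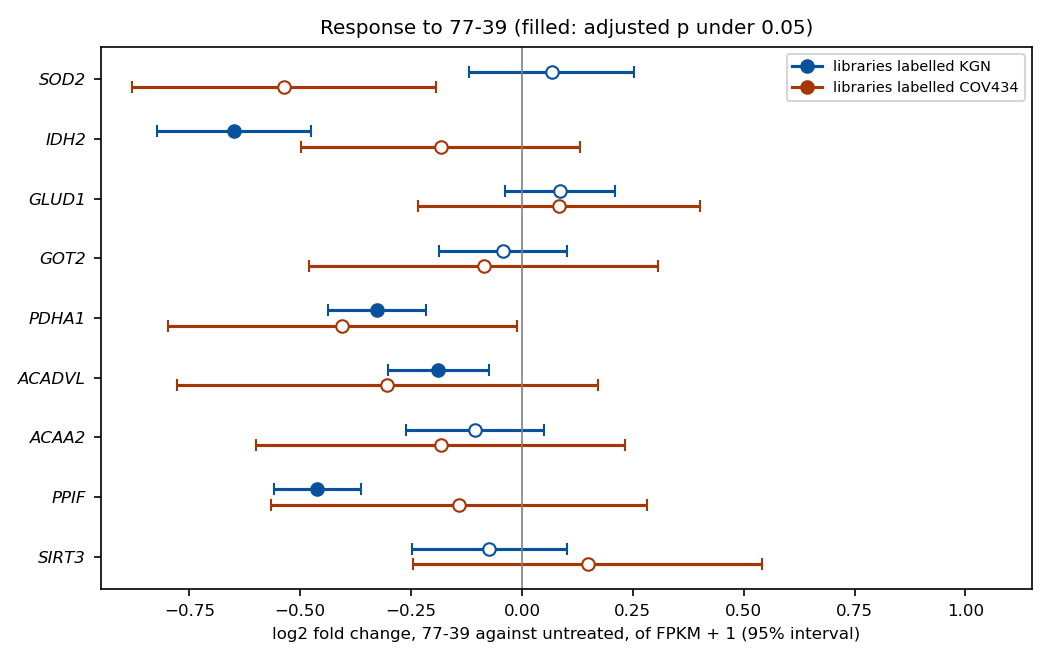
The log2 fold change of FPKM + 1 with 77-39 (x axis) is plotted for the 8 members tested and for SIRT3 (y axis), in libraries labelled KGN (blue) and COV434 (brown). Bars are 95% intervals and filled points have an adjusted p under 0.05, which holds for IDH2, PDHA1, ACADVL and PPIF in KGN and for none in COV434.

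Whether the response differed between the lines was tested over all 12 libraries. None of the 8 members passed by limma (0 called, and 0 by voom on the recovered reads), where 3.6% of 13127 genes did, and 2 had an unadjusted p under 0.05, where 18% of genes did. For SOD2 the response in KGN was higher than that in COV434 by 0.60 on the log2 scale (interval 0.28 to 0.93, adjusted p 0.0511). It passed, at 0.0216, only when treated library 3 of COV434 was left out, in 1 of 12 such fits. IDH2 had a response that was lower in KGN by 0.47, written as a difference of -0.47 (interval -0.76 to -0.18, adjusted p 0.0851). The differences of PPIF (-0.32), ACADVL (0.12), PDHA1 (0.079), ACAA2 (0.077), GOT2 (0.045) and GLUD1 (0.0021) had intervals that included 0. For PDHA1 the interval of the difference ran from -0.28 to 0.44, so responses differing by about as much as its own fall in KGN were within it. A call in KGN and none in COV434 does not show that these members responded differently.

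The untreated lines differed in most members. By limma 7 of 8 were called, where 69% of 13098 genes were, 32.6% as higher and 36.4% as lower in KGN. IDH2 was the 1 member higher in the libraries labelled KGN, at 42.0 ± 2.98 FPKM against 20.3 ± 0.886 FPKM in COV434 (SD, n = 3), a log2 difference of 1.01 with an adjusted p of 8.11e-05. Even after treatment IDH2 in KGN, at 24.4 to 28.3 FPKM, stayed above the untreated COV434 range of 19.3 to 21.1 FPKM. The 6 others called were lower in KGN.

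PDHA1 showed the widest gap of these, at 15.0 ± 0.685 FPKM in untreated KGN and 51.0 ± 1.21 FPKM in untreated COV434, a log2 difference of -1.70 with an adjusted p of 3.25e-06. PPIF, at 18.0 ± 0.416 and 51.0 ± 6.96 FPKM, differed by -1.45 (adjusted p 4.09e-05), and SOD2 by -1.13 (adjusted p 6.08e-05). GLUD1 (-0.52), GOT2 (-0.52) and ACADVL (-0.48) differed less, and their groups did not overlap either. GLUD1 shares 22.2% of its 50-base runs with its near-identical paralog GLUD2, which averaged 0.629 FPKM in untreated KGN and 0.271 FPKM in untreated COV434. ACAA2, at 13.1, 14.3 and 14.5 FPKM in KGN and 13.0, 20.1 and 18.2 FPKM in COV434, did not pass (-0.25, adjusted p 0.206), and it passed only without untreated library 1 of COV434, whose value was the low one (-0.43, adjusted p 0.00308).

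Differences between the lines moved with the scaling. On FPKM as deposited, the median of all genes was -0.024, and it became 0.16 when libraries were scaled by their recovered reads and 0.18 by voom on those reads. All 7 directions held under both, but the call of GOT2 was lost, at -0.32 (adjusted p 0.0681) and -0.33 (adjusted p 0.0554). ACADVL stayed only just under the threshold, at -0.28 (adjusted p 0.04998) and -0.29 (adjusted p 0.0487). Relative to the median of all genes GOT2 lay at -0.50 as deposited and at -0.48 and -0.51 under these scalings. On the same relative scale PDHA1 lay between -1.66 and -1.74 and IDH2 between 1.04 and 1.08 in all of them.

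SIRT3 itself passed the test in neither line. It read 4.22, 4.35 and 4.30 FPKM in untreated KGN and 3.63, 3.94 and 4.55 FPKM with 77-39, with overlapping groups and a log2 fold change of -0.074 (interval -0.25 to 0.10, limma adjusted p 0.475). In the libraries labelled COV434 it read 3.70, 4.30 and 3.46 FPKM untreated and 3.36, 4.95 and 4.82 FPKM treated, a log2 fold change of 0.15 (interval -0.24 to 0.54, adjusted p 0.929).

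The members were then set beside 110 genes of the same pathways in 8 lists. Of these, 94 were tested in the libraries labelled KGN and 34 passed, 11 higher and 23 lower, which is 36.17% beside the 34% of all genes. The count was 22 without untreated library 2 or 3 and 21 without treated library 2. In 1 fit of all 12 libraries it was 7, where 9.76% of all genes were called. Of the genes named below for KGN by the rule, SDHA, PDK1, PDK3, IDH1, GOT1 and NADK2 passed in that joint fit and the others did not. Their calls in fits that left out 1 library are given where fewer than 4 of 6 held. Over the related genes the median log2 fold change was -0.047. The list of 18 other SIRT3 substrates had 8 of 15 tested called, 7 of them lower. SDHA, the flavoprotein of respiratory complex II, fell from 14.3 to 9.70 FPKM (log2 fold change -0.52), and ATP5F1A, the alpha subunit of ATP synthase, from 64.4 to 50.6 FPKM (-0.34). OPA1, which fuses inner membranes, rose (0.29).

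Beside PDHA1, 4 of 11 genes of the pyruvate dehydrogenase complex and its regulators were called in KGN, all lower. That share, 36.36%, is near the 34% of all genes called. PDK1 and PDK3, kinases that switch PDHA1 off by phosphorylation, fell from 3.87 to 2.31 FPKM (-0.56) and from 4.61 to 2.87 FPKM (-0.53). The other two called, named after their values were seen, were PDK2 (-0.43) and the E2 subunit DLAT (-0.22). Beside ACADVL and ACAA2, 7 of 19 genes of fatty acid oxidation were called, 5 lower and 2 higher, a share of 36.84% that is also near it. The short-chain dehydrogenase ACADS (-0.45) and the complex I assembly factor ACAD9 (-0.26) fell, while the electron carrier ETFDH (0.24) and the branched-chain dehydrogenase ACADSB (0.20) rose. The ACADSB call held in 3 of 6 fits that left out 1 library.

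The lists of the other members below had 16.67% to 28.57% of their tested genes called in KGN, under the 34% of all genes. Around SOD2, 2 of 10 antioxidant enzymes were called, both lower, namely the mitochondrial thioredoxin reductase TXNRD2 (-0.41) and thioredoxin TXN2 (-0.29). Around PPIF, 3 of 12 genes of the permeability transition and of cyclophilins were called. The outer membrane channel VDAC3 (-0.29) and the ADP/ATP carrier SLC25A5 (-0.16) fell, and the cytosolic cyclophilin PPID rose from 18.8 to 25.4 FPKM (0.42), opposite in sign to PPIF. The SLC25A5 call held in 1 of 6 fits that left out 1 library (adjusted p up to 0.140). Around ACSS1, 1 of 6 genes of acetate and acetyl-CoA use was called, the citrate carrier SLC25A1 (-0.27), and this call held in 2 of 6 such fits (adjusted p up to 0.0598). Of 7 genes of mitochondrial sirtuins and NAD, 2 were called, and both rose, the mitochondrial NAD kinase NADK2 (0.47) and NAMPT (0.31), which recycles nicotinamide to NAD. SDHA, VDAC3 and SLC25A5 have close copies elsewhere in the genome, and how reads shared with them were counted is not stated.

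**Figure D3:**
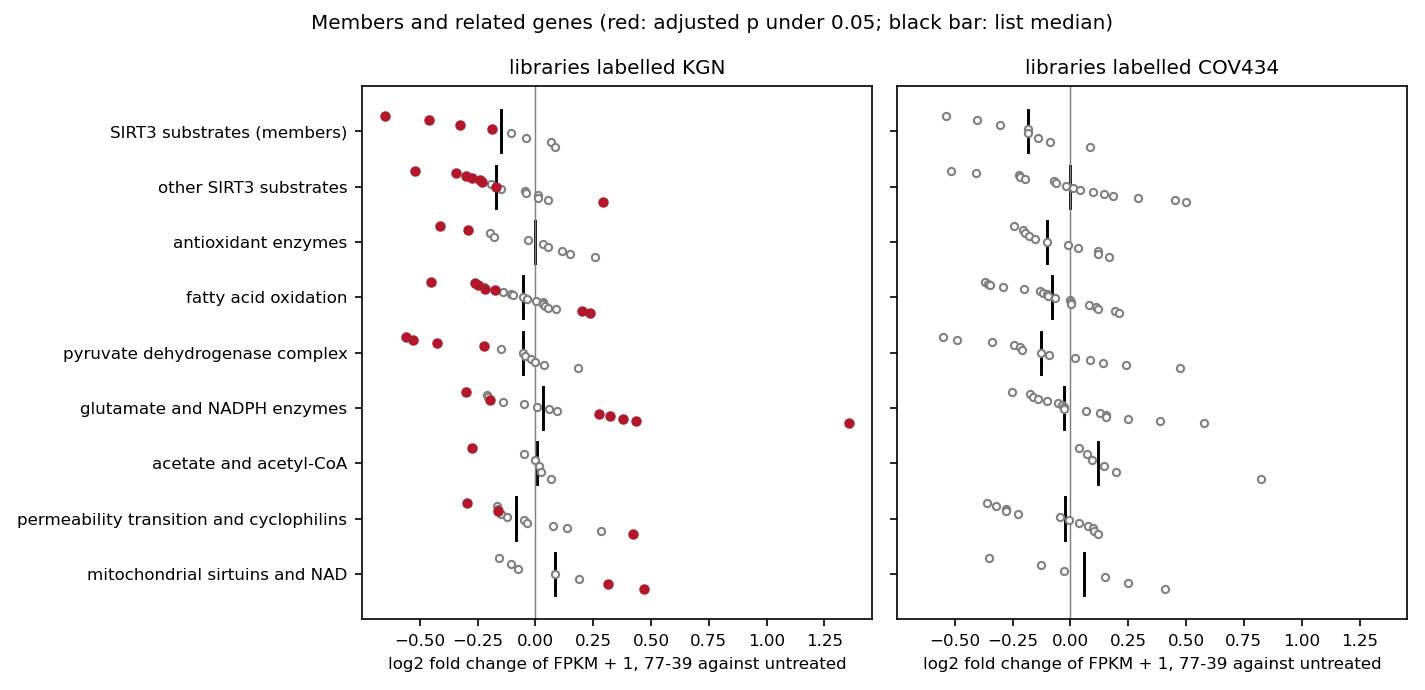
Each point is a gene tested, placed by its log2 fold change of FPKM + 1 with 77-39 (x axis) in its list (y axis), for libraries labelled KGN (left) and COV434 (right). Red points have an adjusted p under 0.05 and black bars are list medians; 4 of 8 members and 34 of 94 related genes are red in KGN, and none are red in COV434.

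Enzymes of glutamate and NADPH metabolism, the pathway of GLUD1, GOT2 and IDH2, had 7 of 14 called in KGN, 5 higher and 2 lower. That is 50%, beside 34% of all genes. IDH3B, a subunit of the NAD+-dependent isocitrate dehydrogenase, fell (-0.30), as did ALDH18A1 (-0.19), which starts proline synthesis and whose call held in 1 of 6 fits that left out 1 library (adjusted p up to 0.086). GOT1, the cytosolic partner of GOT2, rose from 56.6 to 77.0 FPKM (0.44, limma adjusted p 0.000825), while GOT2 was at 37.5 and 36.3 FPKM. IDH1, the cytosolic counterpart of IDH2, read 15.1, 15.7 and 14.6 FPKM untreated and 40.0, 41.8 and 38.9 FPKM treated (1.36, limma adjusted p 6.83e-05).

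On FPKM as deposited, IDH1 and IDH2 exchanged their order in KGN. Within a library, the ratio of IDH1 to IDH2 in FPKM was 0.389, 0.352 and 0.342 in the untreated and 1.64, 1.57 and 1.38 in the treated libraries labelled KGN. Which transcript is the more abundant depends on the lengths used, all exons joined, 4721 bases for IDH1 and 2814 for IDH2. Changes of the ratio between groups use the same lengths throughout. In COV434 the ratio was above 1 in every library, at 1.18, 2.29 and 1.70 untreated and 2.53, 3.05 and 2.03 treated. The COV434 groups overlapped, and in all 3 same-numbered pairs the treated ratio was the higher one. Libraries of the same number deviated together across genes for numbers 1 and 2, and less clearly for number 3. The difference between the lines in the response of IDH1 was 0.97 on the log2 scale, with a limma adjusted p of 0.0511, and 0.0394 with the library number as a block. For GOT1 over GOT2 the ratio averaged 1.51 ± 0.0744 and 2.12 ± 0.0142 in KGN, and 0.491 ± 0.112 and 0.465 ± 0.0446 in COV434 (SD, n = 3). The level of this ratio also depends on the lengths used.

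**Figure D4:**
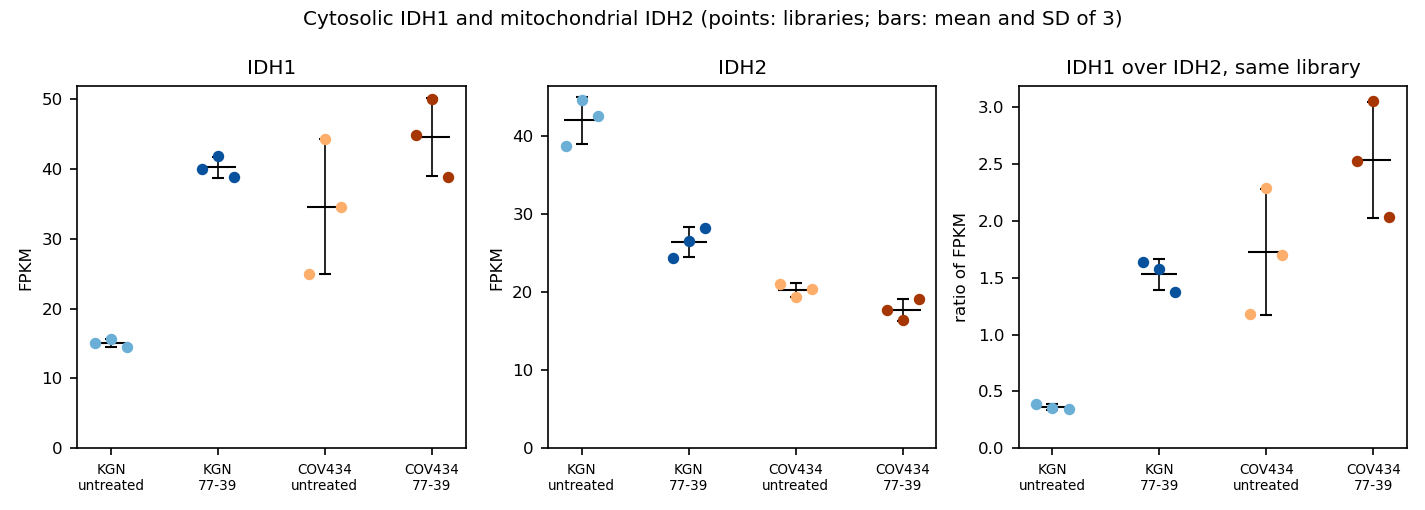
The left and middle panels show FPKM of IDH1 and IDH2 from 0 on the y axis, and the right panel their ratio within each library, for the 4 groups on the x axis. Points are libraries and bars the mean and SD of 3; in KGN the ratio goes from 0.342 to 0.389 untreated to 1.38 to 1.64 treated, and the COV434 groups overlap.

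In the libraries labelled COV434, 0 of 98 related genes passed by limma, where 0.0415% of all genes did, and 0 by voom on the recovered reads. At an unadjusted p under 0.05 there were 9 of 98, where 8% of all genes were. Fitted with the library number as a block, 1 of 98 passed, where 0.721% of all genes did. This was ACSS2, the cytosolic and nuclear counterpart of ACSS1, named after its value was seen. It averaged 13.9 FPKM untreated and 25.1 FPKM treated, a log2 fold change of 0.82 with an adjusted p of 0.193 without the block and 0.0445 with it. In 1 fit of all 12 libraries 7 of 98 related genes passed, where 4.05% of all genes did. Between the untreated lines 67 of 100 related genes were called, 26 higher and 41 lower in KGN, beside 69% of all genes.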

How the data were processed

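The authors deposited a table of FPKM for 12 libraries with gene lengths. Per the labels, RNA was extracted with Trizol and libraries were made with a TruSeq RNA kit. The submitters' processing notes name HISAT2 2.0.5 and mouse builds, although all 58735 gene coordinates match release 29 of GENCODE on GRCh38, and the counting tool is not given in the sources used here. Multiplied by gene length (the length the authors deposited, in bases), the values gave whole reads for 100% of values within 0.05 of a read, which gave the depth of each library. The deposited FPKM use a library total 0.911 to 1.10 times these reads.

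The test was limma 3.58.1 (R 4.3.3; lmFit, then eBayes with its trend option) on log2(FPKM + 1), two-sided. Genes entered when they averaged 1 FPKM or more in the libraries fitted, with Benjamini-Hochberg adjustment over all genes tested and calls at an adjusted p under 0.05. Each line was fitted alone, and the difference between lines as an interaction over 12 libraries. A pseudocount of 1 understates changes of low genes. Replicates of a group were not identical and differed by a chi-square of 2.36 or more per gene, where counting error alone gives about 1. In COV434, same-numbered untreated and treated libraries deviated together for numbers 1 and 2 (r across genes 0.40 and 0.47). For number 3 r was 0.17, close to the 0.154 of untreated 3 with treated 2. In KGN same-numbered libraries did not deviate together (-0.016, -0.018 and -0.019). The COV434 values are a sign of pairing from the data, not the design. In simulated data of this depth with 200 genes changed 2-fold, 95.4% were called in KGN and 89.4% in COV434. The simulation gave all genes of a line 1 dispersion, whereas real COV434 replicates differed by a chi-square of 15.58 to 89.88 per gene. It held no change smaller than 2-fold, so it does not tell how often changes of the size seen in the members would be called.

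The alternatives tried were a filter at 0.1 FPKM or none, a pseudocount of 0.1, median-ratio scaling, scaling by recovered reads, voom on those reads, the library number as a block, 1 fit of 12 libraries, and each library left out. Members and lists were chosen with earlier results of these data known. Named genes were all members, SIRT3 and, per list and line, up to 2 higher and 2 lower genes with the largest fold change among those called without overlap of groups. Promoters are from RefSeq, where all 10 members matched. Tables were handled with Python 3.11.15, numpy 2.4.6, pandas 2.3.3 and matplotlib 3.10.9. The values of 1 retina marker are not reported here.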

Additional observations from a re-analysis of the deposited data

Results flagged for a closer look

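Of the 100 related genes tested, 3 passed the limma interaction over 12 libraries, and these were named after their values were seen. ACADSB, of branched-chain acyl-CoA oxidation, went from 6.84 to 8.04 FPKM in KGN and from 4.58 to 3.33 FPKM in COV434, a difference of 0.57 on the log2 scale (adjusted p 0.0252). PDP1, the phosphatase that switches PDHA1 on, went from 0.138 to 0.50 FPKM in KGN and from 8.93 to 6.05 FPKM in COV434. The difference was 0.88 (adjusted p 0.0235). PDP1 entered this test only through its COV434 level, being under the filter of a fit of KGN alone. In KGN it had 43 reads untreated and 148 treated in all, at levels below the pseudocount of 1. The KGN part of its difference is therefore uncertain. OGG1, which removes oxidized guanine from DNA, went from 4.20 to 3.22 FPKM in KGN and from 4.02 to 4.71 FPKM in COV434, a difference of -0.49 (adjusted p 0.0347). With the library number as a block, PDP1 passed (0.0259) and ACADSB (0.0523) and OGG1 (0.0546) did not. Of 12 fits that left out 1 library, 6 called PDP1, 5 called ACADSB and 4 called OGG1. Over all genes tested 3.6% passed.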

How the results depend on the processing

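Of 480 values of members under the alternatives, 452 kept direction and side of the threshold, 11 lost and 3 gained a call, and 14 changed sign, none larger than 0.0493 in size or with an adjusted p under 0.880. Those were GLUD1 in the difference between the lines with median-ratio scaling (-0.00090), scaling by recovered reads (-0.0030) and voom (-0.0025), and values without 1 library. Over all libraries left out, the range was -0.2159 to 0.0074 for GOT2 in COV434 and, in the difference between the lines, -0.0404 to 0.0378 for GLUD1, -0.0386 to 0.307 for ACADVL, -0.0457 to 0.254 for ACAA2, -0.0493 to 0.174 for GOT2 and -0.0167 to 0.231 for PDHA1. With 1 fit of all 12 libraries, member calls went from 4 to 2 in KGN and from 0 to 1 in COV434, and related calls from 34 to 7 in KGN and from 0 to 7 in COV434. That fit shares 1 spread between lines whose replicates differ in spread. With the replicate block, related calls in COV434 went from 0 to 1, and in KGN the member calls went from 4 to 3 (without ACADVL, adjusted p 0.0656). The block changed no other member call. Scaling by recovered reads moved related calls in the difference between lines from 3 to 5. Leaving out single libraries gave 3 to 4 member calls in KGN, 0 to 1 in the difference and 6 to 8 between untreated lines, and 21 to 38 related calls in KGN (22 without untreated 2 or 3, 21 without treated 2), 0 to 8 in the difference (7 without untreated 1 and 8 without treated 1 of COV434, 0 or 1 without any 1 library of KGN, 1 without untreated 3 of COV434) and 58 to 78 between untreated lines. The cause was not tested. With 3 libraries per group, the COV434 interval of SOD2 reaches from -0.88 to -0.19 on the log2 scale.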

Other observations

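Among the related genes, the largest difference between the untreated lines belonged to GPX1, the glutathione peroxidase of cytosol and mitochondria that removes the hydrogen peroxide SOD2 makes. It read 0.113 to 0.213 FPKM in the untreated libraries labelled KGN, 14 reads in all, and 257 to 490 FPKM in those labelled COV434, 26718 reads. In treated KGN libraries it had 2 reads in all. SOD2 itself averaged 3.31 and 8.43 FPKM in the untreated lines.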
